A study of Mus musculus with 4 samples.

Results

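The mitochondrial ribosomal proteins are the nuclear-encoded proteins of the ribosome that works inside mitochondria. They were taken as every gene with a non-control probe whose gene name on the array is Mrpl or Mrps followed by a number and at most 1 letter. This gave 75 genes on 125 probes, of 27666 genes with a probe: 46 have a large-subunit name (Mrpl) and 29 a small-subunit name (Mrps). All 75 had a probe above background, and 74 were measured on enough arrays to be tested, among 18041 genes tested in all. The gene not tested was Mrpl46. Mrpl42, Mrpl57 and Mrpl58 are on the array under older names and were not counted as members.

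The mitochondrial ribosome translates the few messages of mitochondrial DNA, which encode core subunits of the respiratory chain and of ATP synthase. Its RNAs are made in the mitochondrion, while its proteins are encoded in the nucleus, made in the cytosol and imported, so both genomes supply the particle. Some of its proteins have a counterpart in the bacterial ribosome and others are found only in mitochondria. In liver, where mitochondria oxidise fatty acids, the products of this ribosome are needed for that oxidation to feed the electron transport chain.

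Liver RNA came from male C57BL/6 mice on a high-fat diet. Of these, 4 received a control antisense oligonucleotide and 4 are labelled as treated with an antisense oligonucleotide against Plin2, which encodes the lipid droplet coat protein perilipin 2. The oligonucleotides were injected into the peritoneum at 25 mg/kg, 2 times a week for 4 weeks. Each of 4 Agilent mouse arrays of 2 colours held 1 control liver in Cy5 (red) and 1 liver labelled Plin2-ASO in Cy3 (green): arrays 1 to 4 paired control mice 1, 2, 4 and 5 with mice 6, 7, 9 and 10. Values below are log2 ratios of the liver labelled Plin2-ASO over the control liver of the same array, so a positive value is higher in the livers labelled Plin2-ASO. "Rose" and "fell" mean an adjusted p under 0.05 in limma with Benjamini-Hochberg adjustment over all 18041 genes.

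The dyes ran the same way on all 4 arrays, so a probe's dye effect and the difference between the groups cannot be told apart. The target itself was not reduced: Plin2 had log2 ratios of 0.24, 0.15, 0.83 and 0.36 and a mean of 0.40 ± 0.15 (SE, n = 4 arrays, adjusted p = 0.156). If dyes or labels were exchanged, each direction below would turn. The arrays shared 1 slide and 1 scan, and no spot was saturated. Median spot signals were 243.7 to 499.3 in green and 255.6 to 636.9 in red, and 1.5% to 7.61% of spots were marked as outliers, with array 3 the highest. The hepatocyte markers were bright: the summed signal of 8 of them was 662181 to 706869 in control livers and 413257 to 611722 in the others, with Alb, which encodes albumin, at a mean log2 ratio of -1.70 (adjusted p = 0.00172).

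The mitochondrial ribosomal protein genes showed small mean differences with both signs. Of the 74 tested, 1 rose (Mrps5) and none fell in limma, which is 1.35% of them. Among all genes tested, 3.69% rose, 6.08% fell and 9.76% did either. At an unadjusted p under 0.05 there were 10 members, 7 with a higher mean (Mrps5, Mrps11, Mrpl38, Mrps2, Mrps7, Mrps18a and Mrpl4) and 3 with a lower mean (Mrpl23, Mrps6 and Mrpl33). That is 13.5% of the members, against 26.9% of all genes at the same threshold (11.3% higher and 15.7% lower). The mean log2 ratio of a member ran from -0.61 to 0.72, with a median of 0.02 (-0.01 with scaling between arrays) and quartiles of -0.13 and 0.19. Over all genes the median was -0.03 and the quartiles were -0.27 and 0.19. No member differed by over 2-fold, against 766 of 18041 genes (4.25%), and 55 of the 74 differed by under 1.2-fold.

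**Figure D1:**
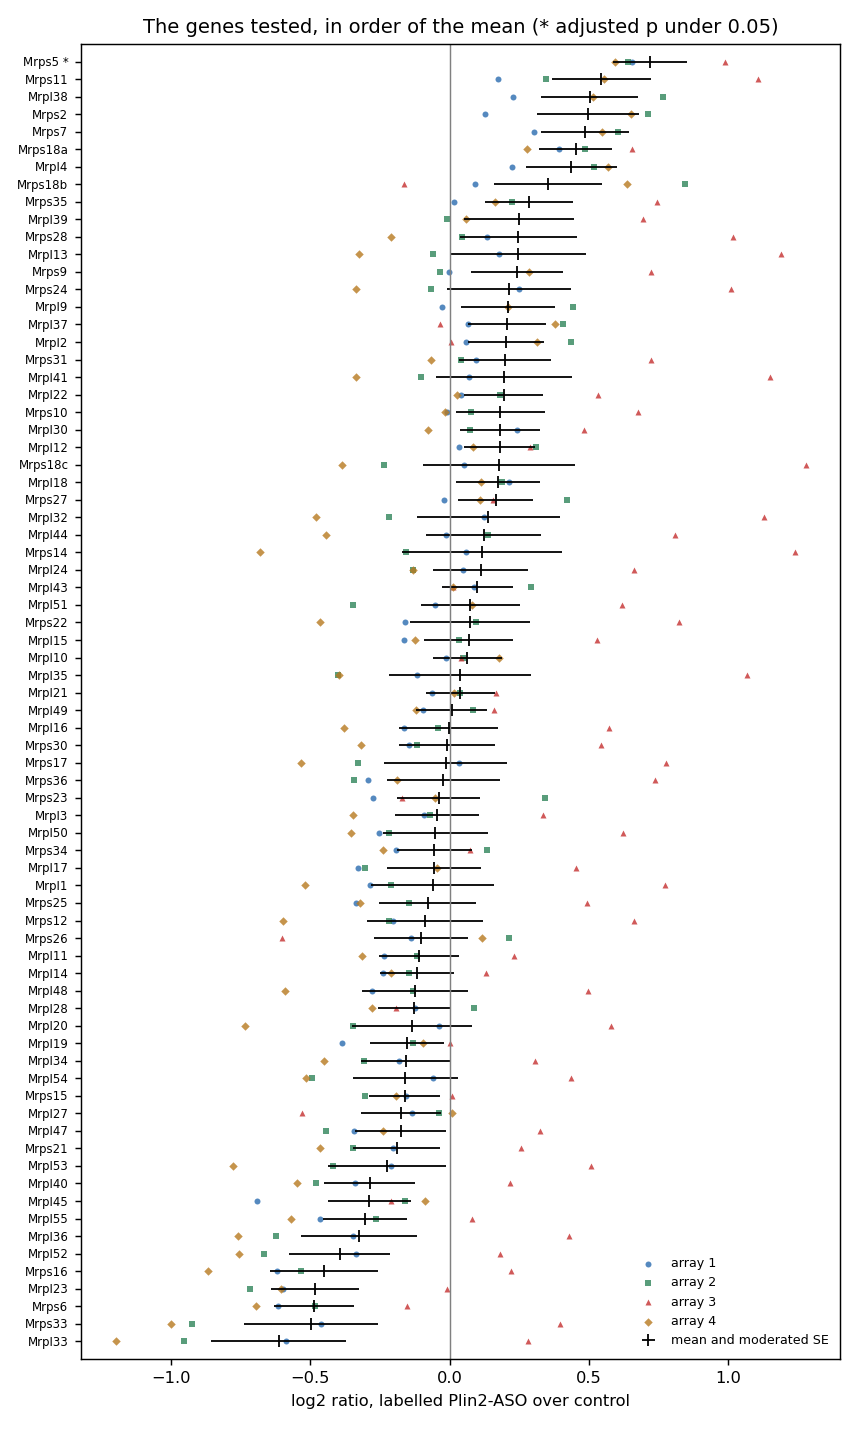
Log2 ratios, labelled Plin2-ASO over control, of the 74 genes tested, ordered by mean; coloured symbols are the 4 arrays and the black tick and bar are the mean and its moderated standard error. Mrps5, at the top with 0.72, was the 1 gene past the adjusted threshold, and the array 3 symbol lies to the right of the others in 54 of the 67 genes measured on all arrays.

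The precision of 4 arrays bounds what could be seen. The median standard error of a member was 0.167 on the log2 scale, against 0.161 over all genes. For 71 of the 74 members the unadjusted 95% interval lay within 2-fold in either direction, and for 39 it lay within 1.5-fold. The intervals of Mrps5, Mrps33 and Mrpl33 reached past 2-fold. Every tested member was well above background on all 4 arrays in both colours, with mean control signals of 8.85 to 14.64 (log2).

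Mrps5 encodes a small-subunit protein that is the counterpart of bacterial S5, which lines the entry of the messenger RNA channel. Its log2 signal was 11.31, 11.22, 11.32 and 10.88 in the 4 control livers and 11.97, 11.86, 12.31 and 11.48 in the livers labelled Plin2-ASO. The liver labelled Plin2-ASO of array 3 was the highest of the 8. The log2 ratios were 0.65, 0.64, 0.99 and 0.59 on arrays 1 to 4, with a mean of 0.72 ± 0.13 (SE, n = 4, a 1.65-fold difference, adjusted p = 0.0204). The call was lost without array 1 (adjusted p = 0.133), without array 2 (0.116) and without array 4 (0.0523), and held without array 3 (mean 0.63, adjusted p = 0.00522). With the scanning software's own ratios the mean was 0.66 and the adjusted p = 0.0555.

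The array holds 4 probes for Mrps5, at separate places on chromosome 2 of the build mm7, plus strand, as the array's annotation gives them. They are shown because agreement among probes of different sequence is a check on the measurement that does not depend on 1 oligonucleotide. The stretches below are bases 1 to 30 of each 60-base probe, 5′ to 3′, with no part marked:
Mrps5 probe at chr2:127331631-127332722: cacggctcattgtcatccagggaaacaagg
Mrps5 probe at chr2:127341716-127342266: tagaacgatacgaaggacatacaatattcc
Mrps5 probe at chr2:127344482-127344541: gaaacccaccaacatctggcggataagaag
Mrps5 probe at chr2:127347312-127347371: catggctataaatagaagctaattgctaag

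The probe that begins at 127331631, the brightest, stood for the gene above. The probe at 127341716 gave 0.59, 0.49, 1.504 and 0.77, with a mean of 0.84 ± 0.19 (SE, n = 4). The probe at 127344482 gave 0.30, 0.54, 0.99 and 0.59, with a mean of 0.61 ± 0.15. The probe at 127347312, which is annotated to another transcript record, gave 0.20, 0.53, 0.77 and 0.35, with a mean of 0.46 ± 0.14. Every value of the 4 probes was above 0, and on each probe array 3 was the highest. Probe GC content was 55%, 36.7%, 55% and 35% in order of position.

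Probes agreed less well for some other genes. Of 28 members with more than 1 usable probe, the probes of 10 differed in the sign of the mean, and the median distance between the highest and the lowest probe was 0.25. Mrps7, the counterpart of bacterial S7 in the head of the small subunit, had 0.30, 0.61 and 0.55 on arrays 1, 2 and 4 on its brightest probe, with the array 3 spot left out as an outlier. Its other probe had a mean of -0.03, and with outlier spots kept the gene's mean was 0.30 (adjusted p = 0.339). Mrps2, the counterpart of bacterial S2, had 0.13, 0.71 and 0.65 on the same 3 arrays, and its other probes had means of 0.20 and -0.17. Mrpl38, a mitochondria-specific protein of the central protuberance, had 0.23, 0.77 and 0.51. A further Mrpl38 probe, measured on all arrays, gave 0.28, 0.57, 0.64 and 0.45, and one annotated to another transcript record had a mean of -0.19. Mrpl3, the counterpart of bacterial L3, spanned -0.37 to 0.28. The members whose probes differed in sign without so wide a span were Mrpl1, Mrpl28, Mrpl35, Mrpl40, Mrpl47 and Mrps18c.

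Large-subunit proteins were examined by their place in the particle. The 30 with a bacterial counterpart had a median log2 ratio of -0.02 and the 17 mitochondria-specific ones 0.01, with no call in either set in limma. The mitochondria-specific set was taken to include Mrps30 and Mrps18a, although the paralogs Mrps18b and Mrps18c were counted as having a bacterial counterpart. At an unadjusted p under 0.05 these sets held 3 and 2 genes, against 26.9% of all genes. The 2 were Mrpl38 and Mrps18a. Mrpl33 had the lowest mean of any member. Its log2 ratios were -0.59, -0.95, 0.28 and -1.20, with a mean of -0.61 ± 0.24 (SE, n = 4, adjusted p = 0.159), and array 3 had the opposite sign to the other arrays.

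The stalk recruits translation factors to the ribosome. Its proteins Mrpl10, Mrpl11 and Mrpl12 had mean log2 ratios of 0.06, -0.11 and 0.18, each with an adjusted p over 0.05. Mrpl12 was above 0 on all 4 arrays, at 0.03, 0.31, 0.29 and 0.08. Around the exit of the peptide tunnel, where the particle is held to the inner membrane, Mrpl17, Mrpl22, Mrpl24 and Mrpl47 lay between -0.18 and 0.19. Mrpl45, the protein that attaches the ribosome to the membrane, was at -0.69, -0.16, -0.21 and -0.09, with a mean of -0.29 ± 0.15 (adjusted p = 0.264). Mrpl23 was at -0.60, -0.72, -0.01 and -0.61, with a mean of -0.48 ± 0.16 (adjusted p = 0.104); all 4 arrays were below 0, array 3 only just. These 6 genes therefore ran from -0.48 to 0.19 with none past the threshold.

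The central protuberance contacts the transfer RNAs. Besides Mrpl38, its genes Mrpl18, Mrpl40 and Mrpl48 had means of 0.17, -0.29 and -0.13. Mrpl44, a relative of RNase III that is needed for assembly of the large subunit, had 0.12 ± 0.21 (SE, n = 4). Mrps30 carries a small-subunit name but sits in the large subunit, and its mean was -0.01 ± 0.17. Mrps18a also belongs to the large subunit, although it was named with its paralogs.

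The 3 Mrps18 paralogs had positive means but did not share a pattern across arrays. Mrps18a was at 0.39, 0.49, 0.65 and 0.28, with a mean of 0.45 ± 0.13 (adjusted p = 0.0753). Mrps18b, of the small subunit, was at 0.09, 0.85, -0.16 and 0.64, with a mean of 0.35 ± 0.19 (adjusted p = 0.289). Mrps18c, also of the small subunit, was at 0.05, -0.23, 1.28 and -0.39, with a mean of 0.18 ± 0.27 (adjusted p = 0.724). On array 3 Mrps18c was the highest of the 68 members measured there, while Mrps18b was below 0; on array 4 their order was the opposite. The 2 usable probes of Mrps18b are annotated to opposite strands.

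Small-subunit proteins with a bacterial counterpart (17 genes) had a median of 0.18, with 1 call, Mrps5, and 5 genes at an unadjusted p under 0.05, a share near the 26.9% of all genes. The 9 mitochondria-specific ones had a median of -0.04, with no call and no gene at an unadjusted p under 0.05. Mrps11, the counterpart of bacterial S11 on the platform, had log2 signals of 10.30, 10.31, 9.98 and 9.85 in control livers and 10.48, 10.65, 11.09 and 10.40 in the others. Its log2 ratios of 0.17, 0.34, 1.11 and 0.55 gave a mean of 0.55 ± 0.18 (SE, n = 4, adjusted p = 0.103). The difference within an array was largest on array 3.

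At the other end, Mrps6, the counterpart of bacterial S6, was at -0.62, -0.48, -0.15 and -0.70, with a mean of -0.49 ± 0.14 (adjusted p = 0.0785). It was below 0 on every array. The mitochondria-specific Mrps33 was at -0.46, -0.93, 0.39 and -1.001, with a mean of -0.50 ± 0.24 (adjusted p = 0.232). Mrps16, a counterpart of bacterial S16 in which mutations cause a respiratory chain disorder, was at -0.62, -0.53, 0.22 and -0.87, with a mean of -0.45 ± 0.19 (adjusted p = 0.188). For Mrps33 and Mrps16, as for Mrpl33, array 3 lay on the other side of 0 from the rest. Mrps12, of the decoding centre, and the mitochondria-specific Mrps22 and Mrps34 had means of -0.09, 0.07 and -0.06, each smaller than its standard error of 0.210, 0.214 and 0.135. Mrps36, which is now known as a subunit of the oxoglutarate dehydrogenase complex and not of the ribosome, had a mean of -0.02 ± 0.20.

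The members' median log2 ratio was -0.09, -0.07, 0.47 and -0.21 on arrays 1 to 4, while that of all genes was -0.04, -0.04, 0.01 and -0.02. On array 3, 58 of 68 measured members were above 0, against 26 of 73, 31 of 74 and 24 of 74 on arrays 1, 2 and 4. With median centring in place of the intensity-dependent loess correction, the median of all genes itself lay at -0.06, 0.17, -0.23 and 0.18, and that of the members at -0.21, 0.25, 0.24 and -0.02; the member median of array 2 then changed sign, and that of array 3 still exceeded that of all genes there. The medians of large-subunit and small-subunit names were -0.11 and -0.01 on array 1, -0.12 and 0.04 on array 2, 0.34 and 0.66 on array 3 and -0.24 and -0.19 on array 4, so their signs differed on array 2.

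**Figure D2:**
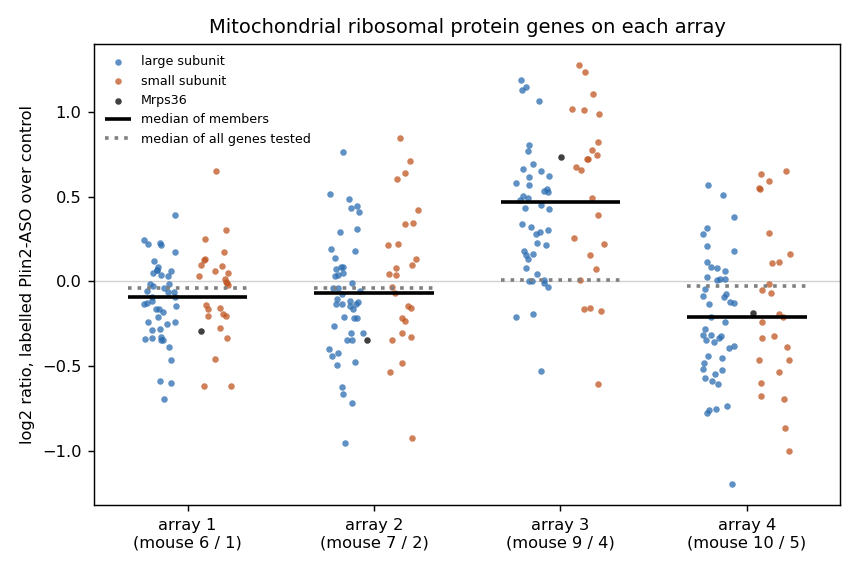
Log2 ratio of each member, labelled Plin2-ASO over control, on each array, with the mouse labelled Plin2-ASO and the control mouse under it; blue points are large-subunit and orange points small-subunit proteins, black lines the member medians and dotted grey lines the medians of all genes tested. The member median is 0.47 on array 3 and between -0.21 and -0.07 on the other arrays.

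Array 3 gave the highest log2 ratio in 54 of the 67 members measured on all arrays (80.6%), against 7261 of 16129 genes (45%). It gave the lowest in 6. For 29 members arrays 1, 2 and 4 had the same sign and array 3 the opposite one. On that array 9 members were above 1 (Mrps11, Mrps28, Mrpl13, Mrps24, Mrpl41, Mrps18c, Mrpl32, Mrps14 and Mrpl35), and 8 of these 9 were below 0 on array 4. Mrps14, at 0.06, -0.16, 1.24 and -0.68, is an example, chosen after its values were seen. Conversely, 10 members were below 0 on array 3, the lowest being Mrps26 at -0.60 and Mrpl27 at -0.53.

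**Figure D3:**
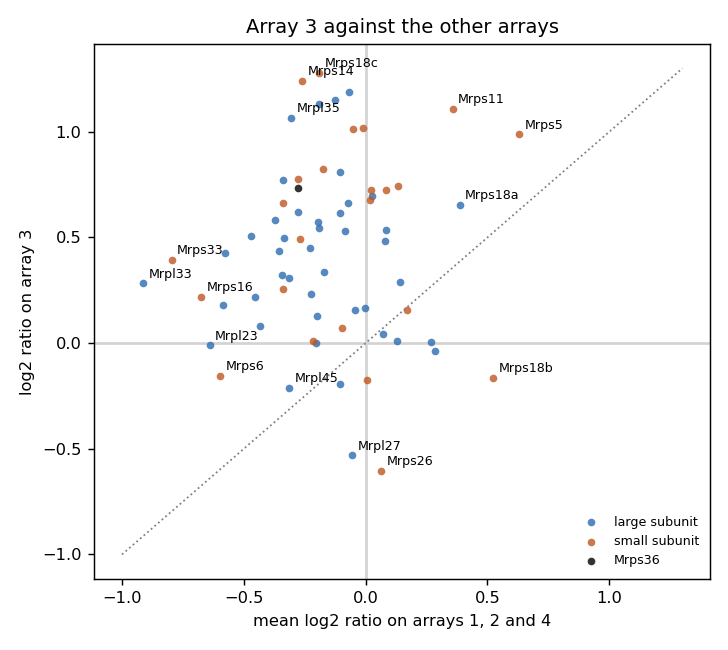
Log2 ratio on array 3 against the mean of arrays 1, 2 and 4 for the members measured on array 3 and on the other arrays, labelled Plin2-ASO over control; the dotted line marks equal values. Most points lie above the line. The correlation was 0.06 across the 67 members measured on all 4 arrays, and 0.36 across all genes measured on all 4.

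Across members, Pearson correlations of the log2 ratios were 0.88 between arrays 2 and 4, 0.70 between 1 and 2 and 0.64 between 1 and 4. Array 3 correlated at 0.47 with array 1, -0.05 with array 2 and -0.11 with array 4. Over all genes array 3 was also the least alike, with 0.47, 0.37 and 0.14. These correlations are across genes of the same arrays, which are not independent, and carry no test. Of 67 measured on all arrays, 12 members (17.9%) had the same sign on all 4 arrays, against 34.3% of all genes: Mrps5, Mrps11, Mrps18a, Mrps35, Mrpl2, Mrpl22, Mrpl12 and Mrpl43 above 0, and Mrpl19, Mrpl45, Mrpl23 and Mrps6 below it. The signs of Mrpl2, Mrpl19, Mrpl23 and Mrpl43 rest on values near 0 on array 3 (0.0041, -0.0002, -0.0104 and 0.0108).

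The members called differed with and without array 3. Without it, 7 members rose (Mrpl38, Mrpl4, Mrps18a, Mrps18b, Mrps2, Mrps5 and Mrps7) and 10 fell (Mrpl23, Mrpl33, Mrpl36, Mrpl40, Mrpl52, Mrpl53, Mrpl55, Mrps16, Mrps33 and Mrps6), which is 23% of the 74. Of all genes, 12.4% rose and 20.3% fell without that array, so the members' share was again below that of all genes, and their median was -0.12. Of the 7 that rose, Mrpl38, Mrpl4, Mrps2 and Mrps7 had no array 3 value to begin with: their means were the same in both fits, while the standard error, which borrows from the spread of all genes, was smaller (0.125 against 0.162 for Mrpl4). Without array 3, Mrpl33 was at -0.91 with adjusted p = 0.00284, Mrps33 at -0.80 with adjusted p = 0.00479 and Mrpl23 at -0.64 with adjusted p = 0.00505.

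Leaving out any other array left no member past the threshold in either direction in limma, with 5, 3 and 4 members at an unadjusted p under 0.05 without array 1, 2 and 4. At that unadjusted threshold the shares of all genes were 15.5%, 16.5% and 20.7%. After adjustment the shares of all genes that rose were 0.804%, 0.909% and 2.11%, and those that fell 1.15%, 1.24% and 3.42%. The member median was 0.07, 0.05 and 0.09. Its sign therefore changed only when array 3 was left out, among these 4 fits.

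Several measures moved with array 3. Among member spots, 7.2% were outliers there, while arrays 1, 2 and 4 had 4%, 0.8% and 0%. The correlation between a member's log2 ratio and the GC content of its probe was -0.34 on array 3 and 0.29, 0.38 and 0.39 on arrays 1, 2 and 4. Over all genes it was also negative on array 3 alone, at -0.28, with 0.06, 0.08 and 0.26 on arrays 1, 2 and 4. The 30 members with the lowest probe GC (35% to 41.7%) had a median of 0.57 on array 3 and -0.33 on array 4, while the 17 with the highest (48.3% to 55%) had 0.07 and 0.11. The 27 members between them (43.3% to 45%) had 0.52 and -0.32, close to those with the lowest GC. After a correction of each array for probe GC, the member median of array 3 was 0.42 and the calls over 4 arrays were again 1 rise and no fall. With both that correction and array 3 left out, 6 members rose and 10 fell, 16 of the 17 named above; Mrps2 was the exception.

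**Figure D4:**
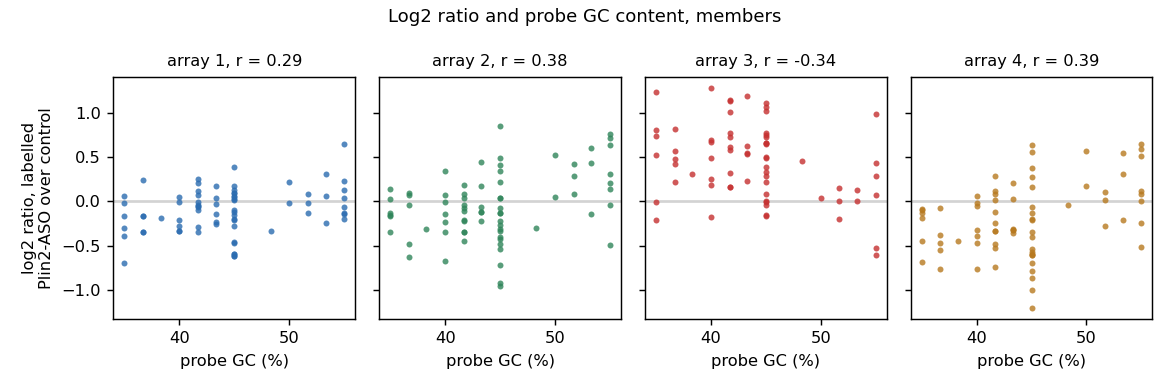
Log2 ratio of each member, labelled Plin2-ASO over control, against the GC content of its probe in percent, 1 panel per array with Pearson's r across genes. The slope is downward on array 3 (r = -0.34) and upward on the others (0.29 to 0.39).

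The summed signals of markers of fat cells, red blood cells and hepatocytes were at an extreme of the 8 livers in the liver labelled Plin2-ASO of array 3. The summed signal of 7 adipocyte markers was 72092 in this liver, the highest of the 8 livers, while over the livers it ran from 18542 to 33056 in controls and from 8241 to 72092 in the others. The lowest control sum was that of array 3. The median log2 ratio of the 8 markers tested was -0.09 to 0.36 on the other arrays, and 1.69 on array 3 for the 7 measured there (all but Lipe). The markers differed on array 3: Cfd was at 6.45, Adipoq, which encodes adiponectin, at 4.10, Plin1 at 1.96 and Fabp4 at 1.69. Cidec was at 0.04, Lep, the leptin gene, at -0.13 and Plin4 at -0.27. Lep had mean log2 signals of 7.73 and 7.75 in the 2 groups. Of this list 2 genes rose and none fell in limma, and 3 had an unadjusted p under 0.05, against 3.69%, 6.08% and 26.9% of all genes. The summed signal of 4 erythroid markers was 410022 in the same liver, again the highest of the 8, with 115849 to 214684 in controls. The highest control sum was also that of array 3. The median log2 ratio of these 4 markers was 0.399, -0.395, 0.936 and 1.104 on arrays 1 to 4, so it was highest on array 4. In the liver labelled Plin2-ASO of array 3 the hepatocyte sum was the lowest of the 8, at 413257. The part of these markers in the members' values on array 3 was not tested. In whole liver, fewer cells of a type and less RNA per cell cannot be told apart.

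The other genes of mitochondrial translation were counted from lists by role. The 7 mitochondrial ribosomal proteins that carry other names, such as Dap3 and Ptcd3, had a median of -0.09 with no call and no gene at an unadjusted p under 0.05. They shared the pattern of the members by array, at -0.17, -0.11, 0.38 and -0.31. Of 22 ribosome assembly factors 2 rose and none fell, with 6 at an unadjusted p under 0.05. These shares are close to those of all genes, of which 9.76% were called and 26.9% had an unadjusted p under 0.05. Gtpbp10, a GTPase that acts in maturation of the large subunit, was at 0.75, 1.099, 1.26 and 0.55, with a mean of 0.91 ± 0.16 (SE, n = 4, adjusted p = 0.016). Mtg1, another GTPase of large-subunit assembly, was at 1.101, 0.99 and 2.02 on arrays 1, 2 and 4, with a mean of 1.37 ± 0.24 (n = 3, adjusted p = 0.0221). Both calls were lost without array 1 (adjusted p = 0.0885 and 0.101) or array 2 (0.108 and 0.0714), and that of Mtg1 also without array 4 (0.0506). With outlier spots kept Mtg1 was at 0.75 (adjusted p = 0.344), and with the mean of its probes Gtpbp10 was at 0.58 (adjusted p = 0.0623). Without array 3, 2 of the assembly factors rose and 4 fell, and 1 of the proteins with other names fell. Of all genes, 12.4% rose and 20.3% fell in that fit.

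Of 12 translation factors none passed in limma, with a median of -0.04. At an unadjusted p under 0.05 there were 4 of them, against 26.9% of all genes. Tufm, the elongation factor that brings transfer RNAs to the ribosome, had a mean of -0.09 ± 0.14. Of 17 mitochondrial aminoacyl-tRNA synthetases, which charge transfer RNAs, 2 rose and 1 fell, against 3.69% and 6.08% of all genes. Lars2, for leucine, had the largest difference of these lists' calls, at -1.18, -3.72, -2.19 and -1.18, with a mean of -2.07 ± 0.41 (n = 4, adjusted p = 0.0242). Nars2, for asparagine, had a mean of 1.00 ± 0.22 (adjusted p = 0.0329) and Fars2, for phenylalanine, 0.84 ± 0.20 (adjusted p = 0.0443). The calls of these genes were each lost without array 1 (adjusted p = 0.0569, 0.129 and 0.135), those of Nars2 and Fars2 also without array 2 (0.152 and 0.188), and that of Fars2 without array 4 (0.122). With the software's ratios Lars2 (adjusted p = 0.0559) and Fars2 (0.0609) missed the threshold. Without array 3, 2 translation factors rose and 2 fell, as did 2 and 2 of the synthetases, against 12.4% and 20.3% of all genes.

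Among 15 genes of mitochondrial DNA and its transcription none passed in limma, with 1 at an unadjusted p under 0.05. Polrmt, the mitochondrial RNA polymerase, had a mean of -0.29 ± 0.16. Tfam, which packages mitochondrial DNA and activates its transcription, was at 0.35, 0.34, -0.97 and 0.42, so array 3 was low where many members were high. Without that array Tfam rose (0.37, adjusted p = 0.0399), while Polrmt (-0.43, adjusted p = 0.0348) and the mitochondrial transcription regulator Mterf2 (-0.76, adjusted p = 0.00469) fell. Of 9 regulators of nuclear genes for mitochondria none passed in limma, with 2 at an unadjusted p under 0.05. The share of all genes at that threshold was 26.9%. Without array 3, 2 of the regulators fell, the nuclear receptor gene Esrra (-0.57, adjusted p = 0.00924) and the coactivator gene Pprc1 (-0.43, adjusted p = 0.034). Of all genes, 12.4% rose and 20.3% fell without that array. The coactivator Ppargc1a was at -0.50, -0.84 and -0.13 on arrays 2, 3 and 4, with a mean of -0.49 ± 0.19 (adjusted p = 0.167). The factors Nrf1 and Gabpa, whose sites are known from promoters of mitochondrial genes, had means of 0.19 ± 0.14 and 0.29 ± 0.19.

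The gene groups most like the members were the cytosolic ribosomal proteins and the nuclear genes of the respiratory chain and ATP synthase. Of 82 cytosolic ribosomal protein genes none rose and 14 fell, with a median of -0.51. Their medians by array were -0.40, -0.76, 0.04 and -0.91, against -0.09, -0.07, 0.47 and -0.21 for the members. Of 77 respiratory chain and ATP synthase genes 2 rose and 7 fell, with a median of -0.23 and medians by array of -0.28, -0.33, 0.26 and -0.50. Among all genes tested, 3.69% rose and 6.08% fell. The member median was above both on each array, and in all of these groups array 3 had the highest median. No test was made of the differences between lists. Without array 3, 66 of 82 cytosolic ribosomal protein genes and 37 of 77 respiratory chain genes fell, against 10 of 74 members and 20.3% of all genes. Without array 1, 2 or 4 the cytosolic genes that fell numbered 3, 3 and 5, and the respiratory chain genes 0, 0 and 1. Of all genes, 1.15%, 1.24% and 3.42% fell in these fits.

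**Figure D5:**
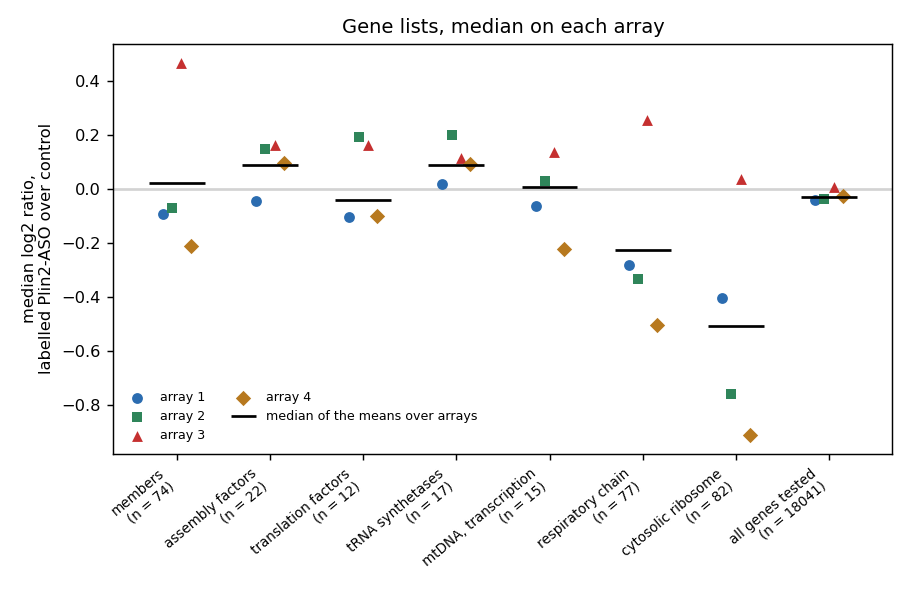
Median log2 ratio, labelled Plin2-ASO over control, of each gene list on each array (symbols) and the median over genes of the mean over arrays (black line), with the number of genes tested. The members lie between -0.21 and 0.47 and the cytosolic ribosomal proteins between -0.91 and 0.04.

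The letters upstream of the members' start sites were examined because members that share a regulator's motif could then be set beside each other. RefSeq regions of the build GRCm38.p6, from 250 bases before to 50 bases after a start, were found for 66 members and for 27025 genes in all, and each motif was sought on both strands. The letters CCGGAAG, bound by ETS factors such as GABPA, were in the region of 24 members (36.4%), against 9.9% of all genes. The core GCATGCGC of NRF1 sites was in 8 (12.1% against 3%) and the YY1 letters AAGATGGC in 11 (16.7% against 3.2%). The TATA box letters TATAAA were in 5 (7.6% against 15.7%). None of these 4 words contains another, and the members' regions had a median GC content of 58.5% against 52.7% for all regions. A match is a description of letters, not a binding site.

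The members' log2 ratios were set beside the motifs without a test. The median log2 ratio was -0.05 for the 24 tested members with the ETS letters and 0.04 for the 41 without them. For the NRF1 core it was 0.17 (8 members) and -0.01 (57), and for the YY1 letters 0.17 (11) and -0.03 (54). The 120 bases before the start are shown, 5′ to 3′ on the gene's strand, for Mrps5, which rose, and for members that show how the motifs lie: Mrps18a and Mrps22 with the ETS letters and Mrpl32 with several NRF1 cores. Capitals mark the motif letters, and Mrps5 has none in this stretch:
Mrps5, chr2:127587306-127587425, plus strand: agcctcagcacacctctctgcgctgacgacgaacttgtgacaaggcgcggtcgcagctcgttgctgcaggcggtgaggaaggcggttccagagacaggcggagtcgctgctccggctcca
Mrps18a, chr17:46110884-46111003, plus strand: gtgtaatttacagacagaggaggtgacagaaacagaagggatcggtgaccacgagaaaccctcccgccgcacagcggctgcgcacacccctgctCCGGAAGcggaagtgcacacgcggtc
Mrps22, chr9:98601680-98601799, minus strand: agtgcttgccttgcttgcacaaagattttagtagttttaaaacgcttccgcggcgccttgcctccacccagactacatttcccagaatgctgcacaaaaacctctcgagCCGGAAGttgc
Mrpl32, chr13:14613038-14613157, minus strand: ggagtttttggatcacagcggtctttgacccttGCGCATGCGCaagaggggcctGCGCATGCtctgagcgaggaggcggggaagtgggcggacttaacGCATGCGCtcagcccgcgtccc

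The ETS letters begin 26 bases before the start of Mrps18a and 11 bases before that of Mrps22. Mrpl32, with overlapping NRF1 cores on both strands, was at 0.12, -0.22, 1.13 and -0.48, with a mean of 0.14 ± 0.26 (SE, n = 4). Mrps22 was at -0.16, 0.10, 0.82 and -0.46. Both were thus highest on array 3 and lowest on array 4, as Mrps18a was, although the range of Mrps18a was narrower.

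Many members start back to back with a neighbour. Of the 66, 25 (37.9%) had the start of another gene on the opposite strand within 1000 bases upstream, against 12.2% of all genes. Mrps11 and Mrpl46 are the 1 pair in which both genes are members, with starts 42 bases apart, and the 41 bases between them are shown on the strand of Mrps11:
Mrps11 to Mrpl46, chr7:78783090-78783130, plus strand: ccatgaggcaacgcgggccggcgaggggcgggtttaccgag

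Mrpl46 was measured on too few arrays to be set beside Mrps11. Other neighbours include Twnk, the mitochondrial DNA helicase, 116 bases from Mrpl43, Sars2, the mitochondrial seryl-tRNA synthetase, 147 bases from Mrps12, and Ndufb5, of respiratory complex I, 308 bases from Mrpl47. Their mean log2 ratios were -0.19, 0.09 and 0.04, against 0.10, -0.09 and -0.18 for the member, and none passed the threshold. Zfp661, 332 bases from Mrps5, was at -0.04 (adjusted p = 0.895) where Mrps5 was at 0.72. Fau, which encodes a cytosolic ribosomal protein and starts 192 bases from Mrpl49, fell (-0.997, adjusted p = 0.0125), while Mrpl49 was at 0.01 ± 0.13.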

How the data were processed

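Liver RNA of 4 control mice and 4 mice labelled Plin2-ASO was measured on 4 arrays, the array being the replicate. Per the file headers, the software Feature Extraction 9.5.1.1 produced each spot's intensity, and the deposited mean and local background intensities were used uncorrected. The deposited log10 ratios, red over green, had already been background-subtracted and dye-normalized by that software. The series table the authors deposited holds the same ratios as log2 (r = 1 on each array, column medians 0). Both served as alternatives, sign turned. No per-sample column was left unused (0).

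In limma 3.58.1 (R 4.3.3, statmod 1.5.0 and version 1.17.8 of data.table), background was corrected with normexp (offset 50), ratios by loess within arrays with control spots at weight 0, and spots flagged as outliers were dropped. Spots of a probe were averaged. Probes well above background on at least 3 of 4 arrays in 1 colour were kept (27160 of 41174). The brightest kept probe measured on at least 3 arrays stood for a gene; 597 of 18638 genes were left out for too few arrays. The fit was an intercept with empirical Bayes moderation, with Benjamini-Hochberg adjustment over 18041 genes. Levels per liver came after loess and Aquantile scaling. The fit was also run on simulated data with independent noise for each gene. Those data held no shift of an array shared by genes, so they do not bear on calls that depend on array 3.

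Member probes were matched to current symbols (assembly GRCm38.p6, names only) by accession for 105, another RefSeq accession for 1 and symbol for 19. The members and lists were chosen with earlier results of these data known. Genes were named by rule: members past the threshold, the 4 highest and 4 lowest that did not pass, members whose probes differed in sign, members of 4 structural lists, members with well-known roles, calls of the other lists and a few regulators. Genes named in other counts were chosen after their values were seen. Labels give each liver as a separate mouse, and precision is limited by there being 4 arrays.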

Additional observations from a re-analysis of the deposited data

Results flagged for a closer look

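Of the 46 named genes, those measured on all 4 arrays were checked for an array far from the others. Mrpl38, Mrps2, Mrps7, Mrpl18, Mtg1 and Ppargc1a, measured on 3 arrays, could not be checked. In 4 genes array 3 lay apart, by a gap, as a share of the whole range, above Dixon's 95% critical value for 4 samples. Chance alone flags about 1 in 20 such groups. Mrps5 was at 0.99 on array 3, with the nearest array at 0.65. Mrpl23 was at -0.0104, with the nearest at -0.60. Mrps36 was at 0.74, with the nearest at -0.19. Tfam was at -0.97, with the nearest at 0.34, and without array 3 its mean was 0.37 (adjusted p = 0.0399 in limma).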

How the results depend on the processing

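The count of members that rose was 1 with all 4 arrays. It was 0 with the scanning software's ratios, 7 with array quality weights (array 3 had a weight of 0.215, the others 0.838 to 2.85), 2 at an adjusted p under 0.1, and 0 to 7 with 1 array left out. The count that fell, 0 with all arrays, was 1 with separate channels (67 members; Mrps6, adjusted p = 0.0443), 11 with array quality weights, 1 at an adjusted p under 0.1, and 0 to 10 with 1 array left out. With array 3 left out and the probe GC correction, an alternative chosen after seeing the data, 6 rose and 10 fell. With array quality weights 39.1% of all genes were called, and 24.3% of members. The other alternatives (no background subtraction, offset 16, median centring, the series table, scaling between arrays, no or a stricter filter, the mean of probes, outlier spots kept, GC correction, trend and robust moderation) gave 1 rise and no fall. The member median ran from -0.12 to 0.09 over all alternatives, and was below 0 with scaling between arrays (-0.01), separate channels (-0.01), array quality weights (-0.08) and both fits without array 3. No direction of a called gene reversed. The fit of ratios within arrays is itself paired, since each array holds 1 control and 1 labelled liver, and the separate-channel fit has the array as a block. Without a dye swap, dye effects could not be resolved. With 4 arrays of 1 slide, differences under about 0.39 could not be resolved either. That is the median half-width of a member's unadjusted 95% interval (log2). Some larger differences also missed the adjusted threshold, such as Mrpl33 at -0.61, Mrps11 at 0.55 and Mrpl38 at 0.50.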

Other observations

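Of the genes that start back to back with a member, Ncapd2, a condensin subunit 614 bases from Mrpl51, fell (log2 ratio -0.87, adjusted p = 0.00819 in limma), while Mrpl51 was at -0.05, -0.35, 0.62 and 0.08 on arrays 1 to 4.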
